A study of Mus musculus with 79 samples.

Results

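The nuclear receptor family was described in the adult mouse hypothalamus, in which transcripts were measured by RNA-seq and the histone marks H3K4me3, H3K27me3 and H3K36me3 by ChIP-seq. Its members were the rows of the RNA-seq table that carry the symbol of 1 of 46 listed nuclear receptors, and all 46 were found among 25965 genes, each once. Expression was compared between 5 +/+ and 4 Δ/D329A animals, and each mark and the input chromatin between 3 +/+ and 3 Δ/D329A animals. Both genotypes were on the C57BL/6Babr background and 14 weeks old. The Δ/D329A animals carry a maternal Dnmt3a allele that lacks exon 18, produced with a Cre driven in oocytes by the Zp3 promoter, and a paternal Dnmt3a allele with the D329A substitution in the PWWP domain, the part of the DNA methyltransferase that reads methylated histone H3. They therefore hold no unmutated Dnmt3a allele in any tissue, while +/+ animals carry neither mutation. Each library came from 1 animal, and each ChIP-seq animal gave all 4 kinds of ChIP-seq library. The labels give no sex. The study describes the ChIP-seq animals as male and the RNA-seq animals as female in one place and male in another, and whether any animal gave both RNA-seq and ChIP-seq libraries is not given in the sources used here.

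Nuclear receptors are transcription factors whose activity is in many cases set by a small lipid-soluble ligand such as a steroid, thyroid hormone, a retinoid, a fatty acid or an oxysterol. Most bind DNA as dimers, often with a retinoid X receptor as partner, recruit corepressors in one state and coactivators in the other, and some are orphans with no known physiological ligand. In the hypothalamus they carry the feedback of thyroid, adrenal and gonadal hormones on the neurons that control the pituitary, and members of the REV-ERB and ROR groups belong to the circadian clock. H3K4me3 marks the starts of active or poised genes, H3K27me3 is laid down by Polycomb complexes at silent or poised genes, and H3K36me3 covers the bodies of transcribed genes.

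Values of expression are given in RPKM, the reads on a gene scaled by its exon length and by the mapped reads of the library, or as log2 RPKM, and values of marks in RPM, the reads in a tile of 2000 bp scaled by the mapped reads. Genes received 5495893 to 9729552 reads in the +/+ libraries and 3837324 to 6523776 in those of Δ/D329A. Replicates 4 and 5 of +/+ had the smallest shares of their reads on genes, 35.7% and 32.6%, against 36.5% to 52.9% in the other 7 libraries. The mitochondrial share of the reads on genes was 1.75% to 3.79% in +/+ and 0.949% to 1.18% in Δ/D329A. The mapped ChIP-seq reads ranged from 12676361 to 30207875 per library. In the H3K4me3 libraries the median tile held 3, 3 and 2 reads in +/+ replicates 1 to 3 and 5, 1 and 2 reads in Δ/D329A replicates 1 to 3. The part of this spread in the H3K4me3 values at promoters was not tested. Of the markers of hypothalamic neurons, 14 of 14 passed the filter on low values, with a summed level of 369 to 775 RPKM in +/+ and 425 to 639 RPKM in Δ/D329A. Limma called none of them (3 had an unadjusted p under 0.05), and edgeR and DESeq2 called 1 lower in Δ/D329A, Sim1, with a log2 difference of −0.82 and groups that did not overlap. In whole tissue of this kind, fewer cells of a type and less RNA per cell cannot be told apart.

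Transcripts of the family spanned the range from among the most abundant of the tissue to none detected. Over the 9 libraries, 24 of the 46 members had a mean at or above 1 RPKM, 10 a mean log2 RPKM of 2 or more, 5 fewer than 10 reads in all and 2 no read. Thra, the thyroid hormone receptor alpha (chromosome 11 of GRCm38, 98740638 to 98769006, plus strand), had the highest level. It stood at 5.80, 5.30, 5.40, 4.71 and 4.54 log2 RPKM in +/+ replicates 1 to 5 and at 5.37, 5.14, 5.33 and 5.44 in Δ/D329A replicates 1 to 4. The Δ/D329A values lay inside the +/+ range, whose lowest values belong to replicates 4 and 5. In +/+ it was above 98.5% of all genes. The exons of Thra and of Nr1d1 on the opposite strand share 263 bp. A strand-specific kit is named in the study, but whether the counting used strand is not given in the sources used here, so the assignment of reads in stretches shared with a gene on the other strand is uncertain.

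The order of levels was mostly gradual. Of the 41 members with 10 or more reads, which form 40 neighbouring pairs, the higher of a pair was above the lower in all 9 libraries in 5 pairs only. These were Thra above Nr1d2, Nr1d2 above Nr3c1, Nr1d1 above Rxra, Nr2f1 above Esrrg and Rarb above Nr2c1, and in the other pairs the order was not the same in every library.

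**Figure D1:**
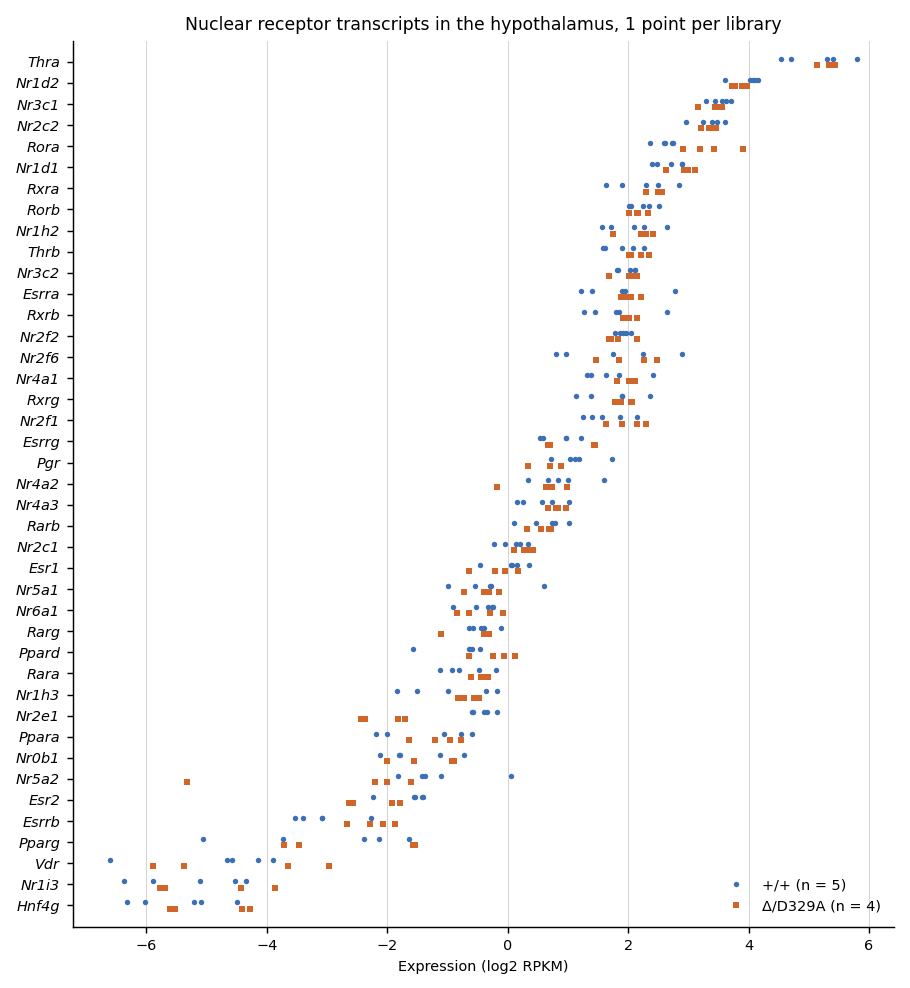
Expression of the 41 nuclear receptors with 10 or more reads, as log2 RPKM on the horizontal axis with 1 row per gene and 1 point per library (5 +/+, 4 Δ/D329A); a library without a read for a gene is drawn at the floor at which the table lists it. Thra lies highest, between 4.54 and 5.80, and the Nr2e1 points of the genotypes stand apart.

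Receptors of thyroid hormone and of retinoids differed widely in level. Thrb, the second thyroid hormone receptor, was at 3.76 ± 0.760 RPKM (SD, n = 5) in +/+, against 37.4 ± 13.2 RPKM for Thra. Of the retinoic acid receptors, Rarb was highest with 1.57 ± 0.355 RPKM, followed by Rarg with 0.748 ± 0.111 and Rara with 0.630 ± 0.165. The retinoid X receptors, the common dimer partners, lay close together at 4.90 ± 1.60 RPKM for Rxra, 3.69 ± 1.53 for Rxrb and 3.48 ± 1.16 for Rxrg. The annotated exons of Rarb overlap those of Top2b on the other strand over 1793 bp, or 34.1% of their length, while the RPKM of Rarb rests on 3034 bp of exon.

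Among the clock receptors, the haem-binding repressors Nr1d2 and Nr1d1 were at 16 ± 2.21 and 6.47 ± 1.03 RPKM in +/+ (SD, n = 5), and the activators Rora and Rorb, which recognise the same DNA elements, at 6.12 ± 0.634 and 4.74 ± 0.682 RPKM. Of the receptors of adrenal and ovarian steroids, the glucocorticoid receptor Nr3c1 was at 11.6 ± 1.29 RPKM, the mineralocorticoid receptor Nr3c2 at 3.96 ± 0.417 and the progesterone receptor Pgr at 2.29 ± 0.62. The oestrogen receptors were lower, with 1.04 ± 0.202 RPKM for Esr1 and 0.329 ± 0.0678 for Esr2. Of the oestrogen-related receptors, orphans that act on energy metabolism, Esrra was at 3.87 ± 1.77, Esrrg at 1.84 ± 0.365 and Esrrb at 0.125 ± 0.0479 RPKM.

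The orphan receptors of neural and neuroendocrine development covered a similar span. The testicular receptors Nr2c2 and Nr2c1 were at 10.2 ± 1.66 and 1.07 ± 0.161 RPKM. Mrps25 overlaps 4590 bp of the annotated exons of Nr2c2, or 30.7% of their length, while the RPKM of Nr2c2 rests on 9152 bp of exon. The COUP transcription factors Nr2f6, Nr2f2 and Nr2f1, which pattern the forebrain, were at 3.85 ± 2.36, 3.78 ± 0.266 and 3.21 ± 0.837 RPKM, and 54.4% of the exon length of Nr2f6 overlaps Ocel1. The activity-induced receptors Nr4a1, Nr4a2 and Nr4a3 were at 3.41 ± 1.14, 1.93 ± 0.671 and 1.5 ± 0.372 RPKM. Nr5a1, a factor required for the ventromedial hypothalamus, was at 0.869 ± 0.383 RPKM, the germ cell factor Nr6a1 at 0.742 ± 0.130, the liver receptor homologue Nr5a2 at 0.509 ± 0.302 and Nr0b1, a partner of Nr5a1 without a classical DNA-binding domain, at 0.373 ± 0.154. Nr2e1, a repressor known for the maintenance of neural stem cells, was at 0.753 ± 0.0919 RPKM.

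Most sensors of lipids and bile acids were low. The oxysterol receptor Nr1h2 was at 4.31 ± 1.31 RPKM and its relative Nr1h3 at 0.562 ± 0.264. The fatty acid receptors Ppard, Ppara and Pparg were at 0.602 ± 0.154, 0.439 ± 0.199 and 0.169 ± 0.118 RPKM. The other 8 members did not pass the filter on low values and were not tested. They were Vdr, the vitamin D receptor, with 19 reads over the +/+ and 17 over the Δ/D329A libraries, Nr1i3 with 10 and 7, Hnf4g with 8 and 8, Hnf4a with 0 and 4, Nr2e3 with 0 and 2, Nr1i2 with 1 and 0, and Nr1h4 and Nr0b2 with no read. Of the exon length of Nr1i3, 74.9% overlaps Tomm40l on the other strand, so the assignment of its reads is uncertain. For the bile acid receptor Nr1h4, 3 reads over the 5 +/+ libraries correspond to 0.0167 RPKM, which is the upper limit that a count of 0 allows (counting error only).

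Members grouped by their promoter marks in +/+ animals differed in median level, in part through genes with few or no reads. The ranges of the groups overlapped widely. A promoter was taken as the tiles centred from 1500 bp before to 500 bp after the start that the table gives, and was said to carry a mark where the mark was at least 2 times the input of the same animal in all 3 +/+ animals. By this rule 28 of 46 members carried H3K4me3 only, 7 carried H3K4me3 and H3K27me3, 4 carried H3K27me3 only and 7 neither, which is 60.9%, 15.2%, 8.70% and 15.2% of the family. The shares over all 25952 promoters were 50%, 5.33%, 3.83% and 40.8%. H3K27me3 in either combination was thus at 23.9% of the family's promoters and 9.17% of all promoters, as a description without a test. None of the 46 promoters carried H3K36me3 by this rule, against 1.19% of all promoters.

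The 7 members with both marks were Nr2e1, Ppara, Pparg, Nr2f1, Nr2f2, Esrrg and Nr0b1, and their levels ran from −2.99 to 1.92 log2 RPKM with a median of −0.42. The 28 members with H3K4me3 only had a median of 1.73 and included the highest level, 5.15 for Thra, and also −5.42 for Hnf4g. The 4 with H3K27me3 only (Vdr, Nr1i3, Nr5a2 and Nr0b2) had a median of −4.54. The 7 with neither (Nr1h4, Nr1i2, Hnf4a, Nr2e3, Esrrb, Nr5a1 and Nr6a1) had a median of −5.34 and a highest value of −0.30 for Nr5a1. The median of −5.34 is the value of Nr1h4, a gene without a read, and is set by the floor at which such genes are listed. The median of −4.54 rests in part on Nr0b2, also without a read. Neither median is a measured level.

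Some members have further annotated starts. In 15 of 46, the annotated protein-coding start with the most H3K4me3 lay over 1500 bp from the start in the table, which in several of these also carried the mark. Rarg had 12.3 RPM at the table's start and 29.8 RPM at a start 11017 bp downstream, whereas Nr1h3 had 26.0 RPM at the table's start and 4.02 RPM at the annotated one. Nr5a1 had 0.152 RPM of H3K4me3 at the table's start and 1.17 RPM at a start 2308 bp further on, where H3K27me3 was 4.44 RPM. Esrrb had 0.968 RPM at the table's start and 10.8 RPM at a start 60527 bp downstream. Nr6a1 had 27.8 RPM at an annotated start 1471 bp downstream, outside the window used for the table's start.

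Across the 46 members, expression and H3K4me3 at the promoter had a Spearman rho of 0.70 in +/+, and over all genes 0.71. For H3K27me3 the coefficients were −0.59 over the members and −0.42 over all genes, and for H3K36me3 over gene bodies 0.69 and 0.69. These are descriptions across genes, which are not independent replicates, and input at the promoter gave −0.31 and −0.20.

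**Figure D2:**
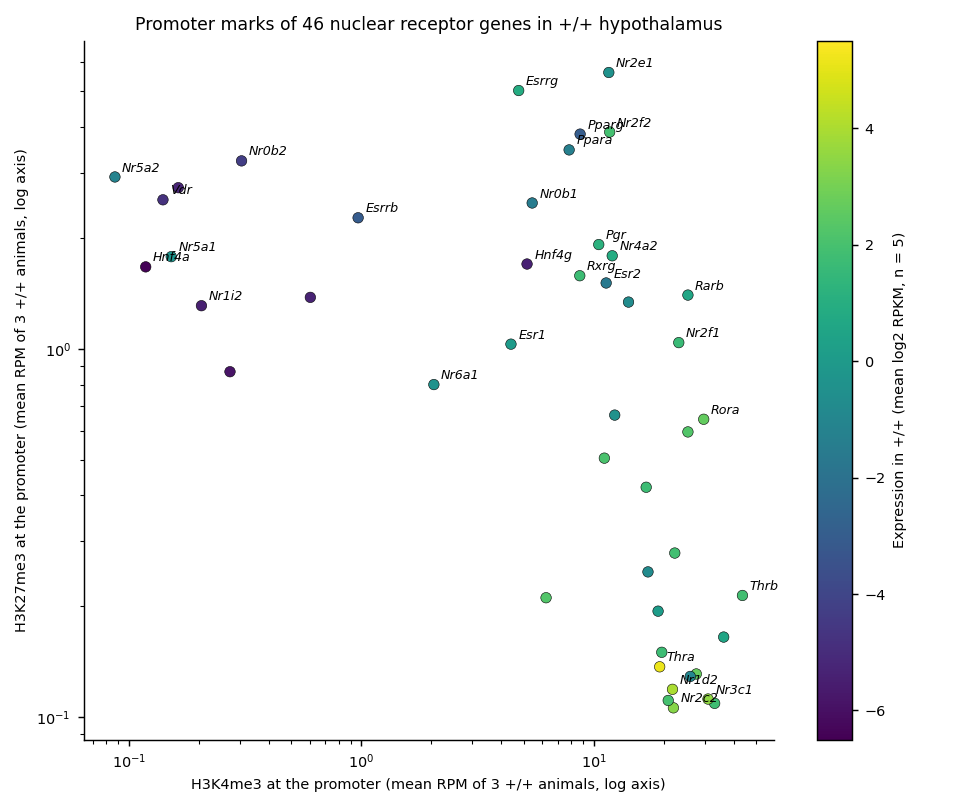
Promoter H3K4me3 (horizontal) against H3K27me3 (vertical) of the 46 nuclear receptor genes, as mean RPM of 3 +/+ animals on log axes, coloured by mean log2 RPKM in 5 +/+ animals; the leading members are named. Nr2e1, Esrrg, Pparg, Ppara and Nr2f2 lie at the upper right with both marks, and highly expressed genes such as Thra and Nr3c1 at the lower right.

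H3K27me3 reached far beyond the promoter at a few members. Counting neighbouring tiles in which the +/+ mean was at least 2 times the input mean, the run around the promoter was 43 kb wide at Nr5a2, 37 kb at Nr2e1, 16 kb at Nr2f2, 14 kb at Esrrg, 13 kb at Vdr, 12 kb at Nr0b2 and 11 kb at Nr2f1. In Δ/D329A the same rule gave 29, 37, 19, 15, 15, 10 and 0 kb, and it gave 13 kb at Rarb and 12 kb at Esrrb, where the +/+ runs were 0 and 3 kb wide. The mean H3K27me3 over each +/+ run is given as a description without a test, since the +/+ values set its extent. It was 3.79 ± 0.113 RPM (SD, n = 3) in +/+ and 3.44 ± 0.118 in Δ/D329A at Nr5a2, 4.22 ± 0.264 and 3.68 ± 0.277 at Nr2e1, 3.23 ± 0.277 and 2.93 ± 0.261 at Nr2f2, and 3.91 ± 0.488 and 3.73 ± 0.26 at Esrrg. It was 3.17 ± 0.227 and 3.65 ± 0.413 RPM at Vdr, 2.68 ± 0.251 and 2.66 ± 0.382 at Nr0b2, and 1.64 ± 0.319 and 0.994 ± 0.338 at Nr2f1. The animals of the genotypes did not overlap at Nr5a2, Nr2e1 and Vdr, with lower Δ/D329A values at the first pair and higher ones at Vdr. No share over comparable runs of other genes is given here, and the +/+ values set the extent of each run. No difference between the genotypes is therefore drawn from these runs.

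The promoters of Nr2e1 and Rora, described further on for their expression, of Esr2 and Nr2f1, described for H3K27me3, and of Nr1i2, a member with 1 read in all, differ in their content of the dinucleotide CG, the target of DNA methyltransferases. Their sequences are printed from RefSeq (GRCm38.p6), 250 bases before to 50 after a start, 5′ to 3′ on the strand of the gene, with each CG in capitals. Nr2e1 lies at chr10:42583541-42583840 (minus strand, 19 CG), Rora at chr9:68653536-68653835 (plus, 28 CG), Esr2 at chr12:76177210-76177509 (minus, 14 CG), Nr2f1 at chr13:78198824-78199123 (minus, 23 CG, 883 bp downstream of the table's start) and Nr1i2 at chr16:38294775-38295074 (minus, 2 CG).
Nr2e1: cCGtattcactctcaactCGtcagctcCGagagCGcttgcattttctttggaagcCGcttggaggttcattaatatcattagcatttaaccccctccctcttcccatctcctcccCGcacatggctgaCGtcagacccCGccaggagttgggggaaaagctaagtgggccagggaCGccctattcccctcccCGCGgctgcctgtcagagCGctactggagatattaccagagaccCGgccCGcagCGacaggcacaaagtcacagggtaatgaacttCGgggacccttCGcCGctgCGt
Rora: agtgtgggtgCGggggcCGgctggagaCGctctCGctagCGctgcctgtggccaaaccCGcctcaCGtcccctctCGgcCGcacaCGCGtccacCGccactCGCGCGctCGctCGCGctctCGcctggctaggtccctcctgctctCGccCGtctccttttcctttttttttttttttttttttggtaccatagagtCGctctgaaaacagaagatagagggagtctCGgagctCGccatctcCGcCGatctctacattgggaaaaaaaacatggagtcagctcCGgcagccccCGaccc
Esr2: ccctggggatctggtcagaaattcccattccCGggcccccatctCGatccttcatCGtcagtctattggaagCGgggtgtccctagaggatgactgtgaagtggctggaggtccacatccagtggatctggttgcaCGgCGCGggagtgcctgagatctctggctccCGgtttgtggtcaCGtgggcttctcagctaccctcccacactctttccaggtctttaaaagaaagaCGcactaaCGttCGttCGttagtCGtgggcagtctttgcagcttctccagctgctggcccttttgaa
Nr2f1: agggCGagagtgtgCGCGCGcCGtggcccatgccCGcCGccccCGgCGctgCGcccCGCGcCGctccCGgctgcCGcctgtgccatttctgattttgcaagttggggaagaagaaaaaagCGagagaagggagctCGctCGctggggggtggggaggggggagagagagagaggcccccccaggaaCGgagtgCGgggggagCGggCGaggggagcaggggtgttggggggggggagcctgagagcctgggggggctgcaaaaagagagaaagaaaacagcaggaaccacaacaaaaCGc
Nr1i2: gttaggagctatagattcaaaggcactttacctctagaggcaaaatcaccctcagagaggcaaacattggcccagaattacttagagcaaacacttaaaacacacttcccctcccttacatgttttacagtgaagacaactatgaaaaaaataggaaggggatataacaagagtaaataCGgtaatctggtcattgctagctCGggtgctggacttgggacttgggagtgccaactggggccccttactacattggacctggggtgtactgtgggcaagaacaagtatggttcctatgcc

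A RefSeq promoter within 1000 bp of the table's start was matched for 34 members and for 14660 genes of the table. The median number of CG in these 300 bases was 19 over the members and 14 over all genes. It was 25 in the 21 matched members with H3K4me3 only (6 to 55), 19 in the 7 with both marks (2 to 44), 3 in the 3 with H3K27me3 only (2 to 3) and 4 in the 3 with neither (2 to 7). AGGTCA, the half-site that many nuclear receptors bind, was found on either strand in 6 of 34 members (17.6%) and in 13.9% of all promoters. AAGTCA, the half-site known for Nr2e1, was found in 3 of 34 members (8.82%), Nr2e1 itself among them, and in 13.2% of all promoters. A match of letters is no evidence of binding.

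The comparison of genotypes asked which receptors differ in expression when no unmutated Dnmt3a allele is present. Of the 38 members tested, 1 was called at a limma adjusted p under 0.01, against 0.107% of the 17839 genes tested. Over all genes, 15 calls were higher and 4 lower, which became 22 and 12 with median centring (0.191% called) and 16 and 16 with quantile normalization (0.179%). The member called was Nr2e1, which fell 3.17-fold in Δ/D329A. By edgeR on the recovered reads 1 member was called (0.554% of the genes tested), again Nr2e1, and by DESeq2 2 members (1.56%), Nr2e1 lower and Rora higher. An unadjusted limma p under 0.05 was reached by 6 members, or 15.8% of those tested, against 7.62% of all genes. The members were chosen with earlier results of these data known, so this share is a description. The genotypes did not overlap in 2 members, Nr2e1 and Rora, against 3.0% of all genes tested.

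Nr2e1 (chromosome 10, 42561963 to 42583632, minus strand) stood at −0.39, −0.57, −0.17, −0.60 and −0.35 log2 RPKM in +/+ replicates 1 to 5. In Δ/D329A replicates 1 to 4 it stood at −2.44, −1.70, −1.82 and −2.37. All 4 Δ/D329A values lay more than 1 log2 unit below the lowest +/+ value. The counts behind them were 38 to 52 reads in +/+ and 8 to 14 reads in Δ/D329A. The log2 difference was −1.66 (SE 0.21), with an adjusted p of 0.00911 by limma, 0.00670 by edgeR and 1.42e-04 by DESeq2. The difference of the means had p = 0.0159 by a two-sided exact permutation test, the smallest that 5 libraries against 4 allow. The log2 difference was negative in every alternative run, but limma's adjusted p exceeded 0.01 without any 1 of the 9 libraries, up to 0.0431, and without +/+ replicates 4 and 5, where it was 0.0520. With all libraries it also exceeded 0.01 with median centring (0.0131), quantile normalization (0.0116), a limit of 0.5 RPKM (0.0370) and a pseudocount of 0.1 RPKM (0.0188).

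Since Nr2e1 is known from neural stem cells and glia, the markers of such cells are given beside it. None of 7 astrocyte and none of 10 tanycyte and ependymal markers was called by limma, edgeR or DESeq2. The summed level of the astrocyte markers was 145 to 249 RPKM in +/+ and 167 to 248 in Δ/D329A, and that of the tanycyte and ependymal markers 26.8 to 52.6 and 27.8 to 45.5 RPKM. Both ranges overlap between the genotypes. Of the astrocyte markers 5 had a positive and 2 a negative log2 difference, with a median of 0.20, and of the tanycyte and ependymal markers 5 a positive and 5 a negative one, with a median of 0.04. Among these markers the neural progenitor filament gene Nes differed by −0.41 (SE 0.24, limma adjusted p 0.475) and Slc7a10, an amino acid transporter of astrocytes, by −0.56 (SE 0.28, limma adjusted p 0.355) on the log2 scale. Fabp7, a gene of radial glia and astrocytes from the list of PPAR targets, was called lower by DESeq2 (−0.77, SE 0.21, limma adjusted p 0.333), without overlap of the groups. These 3 genes are named after their values were seen, and the part of such cells in the level of Nr2e1 was not tested. Of 10 partners and targets of Nr2e1, none was called by any of the 3 tools, and the median log2 difference was 0.09, against 0.07 over all genes tested. Of these, Gfap, the astrocyte filament gene that it is known to repress, named here after its values were seen, had a log2 difference of 0.61 (SE 0.25, limma adjusted p 0.355), and Cdkn1a, a cell cycle inhibitor, of 1.07 (SE 0.37, limma adjusted p 0.355).

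Rora (chromosome 9, 68653786 to 69388246, plus strand) stood at 2.59, 2.73, 2.61, 2.36 and 2.75 log2 RPKM in the +/+ replicates and at 3.90, 3.20, 2.91 and 3.42 in the Δ/D329A replicates. The groups did not overlap, and the highest value belonged to Δ/D329A replicate 1. The counts behind them were 1038 to 1478 reads in +/+ and 1264 to 2847 in Δ/D329A. The log2 difference was 0.75 (SE 0.19), a 1.68-fold higher level, with an adjusted p of 0.268 by limma, 0.0453 by edgeR and 0.00453 by DESeq2, so that it was called by DESeq2 only. The exact permutation test gave the same smallest p, 0.0159 (two-sided).

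Rora is also strongly expressed in the thalamus, which borders the hypothalamus. Of 6 thalamic markers, all tested, 0 were called by limma (3 had an unadjusted p under 0.05), 1 by edgeR and 2 by DESeq2, all higher in Δ/D329A, and the median log2 difference was 0.63. Their summed level was 49.8 to 86.0 RPKM in +/+ and 75.8 to 96.5 RPKM in Δ/D329A, and none was at 0. Gbx2 differed by 1.79 (SE 0.45, limma adjusted p 0.255) on the log2 scale. The part of these cells in the level of Rora was not tested.

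**Figure D3:**
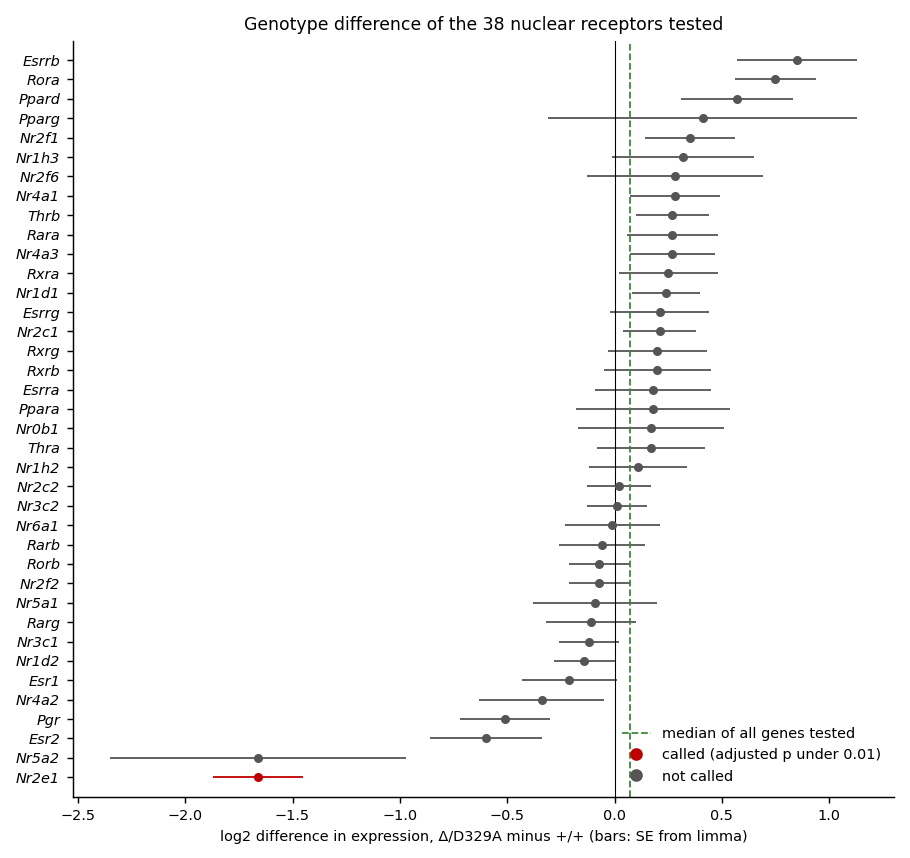
Log2 difference in expression between Δ/D329A (n = 4) and +/+ (n = 5) of the 38 nuclear receptors tested, with bars for the limma SE; the dashed line is the median of all 17839 genes tested, 0.07. Nr2e1 at −1.66 is the only member called, and 31 of the 37 members not called lie within 0.5 of zero.

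The other 4 members with an unadjusted limma p under 0.05 were not called by any of the 3 tools, and their groups overlapped. Pgr, a gene induced by oestrogen, averaged 1.16 ± 0.37 log2 RPKM over the 5 +/+ and 0.65 ± 0.23 over the 4 Δ/D329A libraries (± SD), so that the difference was −0.51 (SE 0.21). Its +/+ replicate 1 was at 1.73, and the other +/+ libraries at 0.72 to 1.19. Esr2 was at −1.63 ± 0.35 and −2.23 ± 0.44, a difference of −0.60 (SE 0.26), on 6 to 23 reads per library. Nr5a2 was at −1.13 ± 0.71 and −2.79 ± 1.71, a difference of −1.66 (SE 0.69), in which Δ/D329A replicate 2 has a single read. Its +/+ replicate 1 was at 0.05, against −1.82 to −1.10 in the other +/+ libraries. Esrrb was at −3.07 ± 0.49 and −2.22 ± 0.34, a difference of 0.85 (SE 0.28), on 7 to 23 reads per library. The limma adjusted p was 0.355 for each of these 4 genes.

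**Figure D4:**
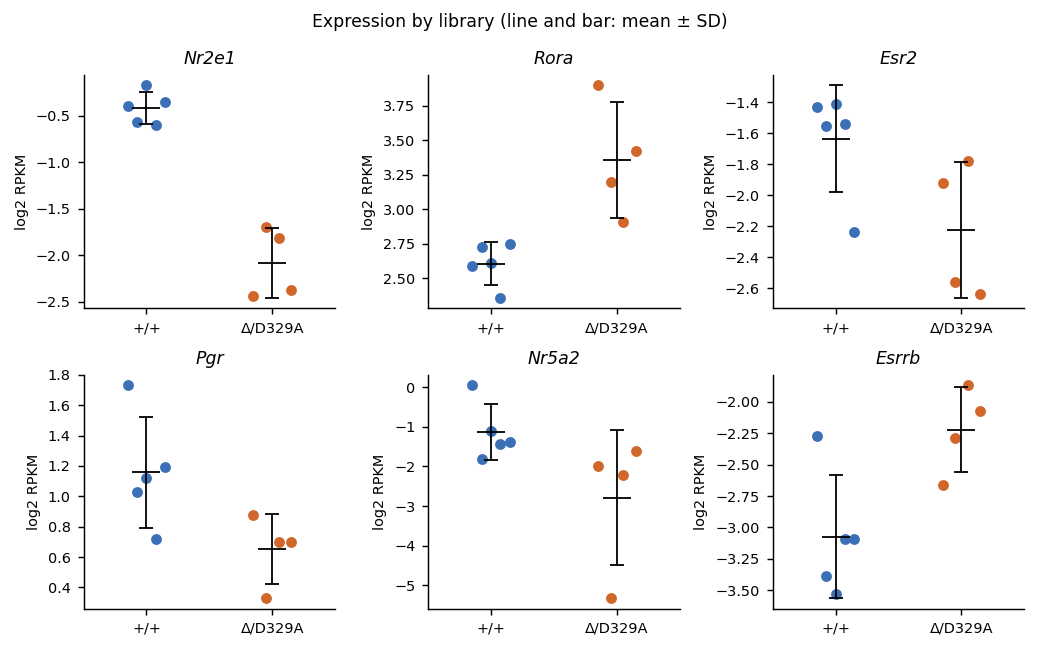
Expression of the 6 members with an unadjusted limma p under 0.05, as log2 RPKM by genotype (5 +/+ and 4 Δ/D329A libraries, 1 point each), with the mean and SD; the vertical axes differ between panels and do not start at zero. The groups stand apart in Nr2e1 and Rora and overlap in Esr2, Pgr, Nr5a2 and Esrrb.

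The remaining 32 members tested showed no difference that passed any of the 3 tools. Over all 38 members, 24 had a positive and 14 a negative log2 difference, and the median was 0.18, against 0.07 over all genes tested. For 32 of the 38, the lowest +/+ library was replicate 4 or 5, and for 22 these were the lowest pair. By class, the log2 differences were 0.17 (SE 0.25) for Thra and 0.27 (SE 0.17) for Thrb, 0.27, −0.06 and −0.11 for Rara, Rarb and Rarg, and 0.25, 0.20 and 0.20 for Rxra, Rxrb and Rxrg. They were 0.24 and −0.14 for the REV-ERB genes Nr1d1 and Nr1d2, −0.07 for Rorb, 0.11 and 0.32 for Nr1h2 and Nr1h3, and 0.18, 0.57 and 0.41 for Ppara, Ppard and Pparg. Nr3c1 and Nr3c2 differed by −0.12 (SE 0.14) and 0.01 (SE 0.14), and Esr1 by −0.21 (SE 0.22).

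Esrra and Esrrg differed by 0.18 and 0.21, Nr2c1 and Nr2c2 by 0.21 and 0.02, and Nr2f1, Nr2f2 and Nr2f6 by 0.35, −0.07 and 0.28. The activity-induced Nr4a1, Nr4a2 and Nr4a3 differed by 0.28, −0.34 and 0.27, beside immediate early genes of which 8 of 8 had a positive log2 difference and 1 was called by DESeq2, Egr1. Nr5a1, Nr6a1 and Nr0b1 differed by −0.09, −0.01 and 0.17. Markers of the ventromedial hypothalamus, among them Nr5a1, had a summed level of 53.2 to 96.4 RPKM in +/+ and 53.4 to 70.7 RPKM in Δ/D329A, and 1 of 6 was called lower by edgeR and DESeq2, Adcyap1.

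The histone marks at the 46 promoters were then compared between the genotypes. No member was called by limma at an adjusted p under 0.05 for H3K4me3 (0% of 25952 promoters called), H3K27me3 (0%), H3K36me3 (0.0231%) or input (0%), nor for H3K36me3 over gene bodies (0% of 23657). On simulated data of 3 against 3 animals, limma recovered 0% of log2 changes of 1 for H3K4me3 and for H3K27me3. It recovered 81.5% and 78% of log2 changes of 2, so the absence of limma calls says little about smaller changes. The changes were planted only at promoters with a mean of at least 1 RPM, with noise drawn independently for each library. These rates therefore do not cover weaker promoters or shifts shared across a library. An unadjusted limma p under 0.05 was reached by 1 member for H3K4me3 (3.47% of all promoters), 5 for H3K27me3 (8.90%), 6 for H3K36me3 (6.57%), 3 for input (4.95%) and 6 for H3K36me3 over gene bodies (16.1%). By edgeR, 2 members were called for H3K27me3 (1.51% of 15742 promoters called) and none for H3K4me3 (0.290% of 17577 promoters called), H3K36me3 (0.0532% of 15034) or input (0% of 24871). The genotypes did not overlap at 1, 7, 7, 3 and 11 members in this order, against 6.06%, 13.6%, 11.7%, 10% and 22.0% of all. The state by the rule of 2 times input was the same in both genotypes at 42 of 46 members, and at 94.6% of all promoters. Esr2 moved from H3K4me3 only to both marks, Nr2f1 from both marks to H3K4me3 only, Esrrg from both marks to H3K27me3 only and Esrrb from neither to H3K27me3 only.

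At the promoter of Esr2, the oestrogen receptor beta (chromosome 12, 76120419 to 76177259, minus strand), H3K27me3 was higher in Δ/D329A in all 3 animals. It was 1.45, 1.59 and 1.49 RPM in +/+ replicates 1 to 3 and 3.60, 2.92 and 3.60 RPM in Δ/D329A, so that the lowest Δ/D329A value was well above the highest +/+ value. Input there was 0.736 ± 0.0337 RPM (SD, n = 3) in +/+ and 0.759 ± 0.122 in Δ/D329A. The log2 difference was 1.11 (SE 0.11), with a limma adjusted p of 0.106, and the exact permutation test gave the smallest possible p, 0.1. Esr2 was called by edgeR on the recovered reads with an adjusted p of 0.00132 (1.51% of 15742 promoters called), and in limma fits with median centring (0.208% called), with quantile normalization (0.566%) and over promoters with a mean of at least 0.5 RPM (1.70%). The run of enriched tiles around the start was 2 kb wide in +/+ and 9 kb in Δ/D329A.

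H3K4me3 at the Esr2 promoter was 11.5, 9.44 and 12.8 RPM in +/+ and 4.55, 11.3 and 5.81 RPM in Δ/D329A, with Δ/D329A replicate 2 inside the +/+ range. The log2 difference was −0.73 (SE 0.35, limma adjusted p 1.0). It was −0.46 without Δ/D329A replicate 1, −1.10 without Δ/D329A replicate 2 and −0.52 with median centring. H3K36me3, which is low at this start (percentile 2.80 in +/+), was 0.0219, 0.0237 and 0 RPM in +/+ and 0.195, 0.0737 and 0.105 RPM in Δ/D329A, a log2 difference of 0.93 (SE 0.20, limma adjusted p 0.718). The groups did not overlap, but these values correspond to few reads and all lie far below input. This difference shrank to 0.27 with a pseudocount of 0.5 RPM and to 0.35 with a window of 2500 bp on both sides.

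At Nr2e1, whose transcript fell, H3K27me3 at the promoter was among the highest of the genome in +/+ (percentile 98.9). It was 5.63 ± 0.554 RPM (SD, n = 3) in +/+ and 5.44 ± 0.555 in Δ/D329A, a log2 difference of −0.05 (SE 0.13, limma adjusted p 0.945). H3K4me3 was 15.3, 8.28 and 11.2 RPM in +/+ and 3.86, 9.27 and 7.33 RPM in Δ/D329A. The groups overlapped through +/+ replicate 2 and Δ/D329A replicate 2, and the log2 difference was −0.80 (SE 0.39, limma adjusted p 1.0). The difference was −0.44 without Δ/D329A replicate 1, −1.07 without Δ/D329A replicate 2 and −0.59 with median centring. In the fit over the 16483 promoters with a mean of at least 0.5 RPM it was called with an adjusted p of 0.0231 (1.68% of them called), and in no other fit. H3K36me3 was 0.197, 0.0237 and 0 RPM in +/+ and 0.536, 0.0983 and 0.446 RPM in Δ/D329A, with overlapping groups (log2 difference 1.41, SE 0.58, limma adjusted p 0.754).

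Single tiles around Nr2e1, chosen after their values were seen and not tested, differed in both directions. In the tile of highest H3K4me3, centred 0.632 kb after the start, the values were 23.0, 14.9 and 20.2 RPM in +/+ and 6.84, 13.8 and 11.0 RPM in Δ/D329A. In a tile centred 10.6 kb after the start, H3K4me3 was 1.71, 1.80 and 2.36 RPM in +/+ and 3.14, 6.78 and 5.55 RPM in Δ/D329A. The groups did not overlap in either tile, the first being lower and the second higher in Δ/D329A.

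H3K27me3 was lower in Δ/D329A at Nr2f1, a COUP transcription factor (chromosome 13, 78188973 to 78199757, minus strand). It was 1.13, 1.20 and 0.793 RPM in +/+ and 0.672, 0.267 and 0.305 RPM in Δ/D329A, without overlap. The log2 difference was −1.21 (SE 0.34), with an adjusted p of 0.447 by limma and 0.0255 by edgeR, and of 0.0347 by limma over promoters with a mean of at least 0.5 RPM (1.70% of 12891 called). Input moved the other way at this promoter, with 0.408, 0.278 and 0.293 RPM in +/+ and 0.480, 0.565 and 0.461 RPM in Δ/D329A, and was among the lowest of the genome (percentile 5.60 in +/+). At the Nr2f1 start with the most H3K4me3, 1827 bp downstream, mean H3K27me3 was 1.16 RPM in +/+ and 0.842 RPM in Δ/D329A, and mean H3K4me3 37.1 and 37.9 RPM.

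Nr0b1 on chromosome X also had less H3K27me3, with 2.33, 2.58 and 2.55 RPM in +/+ and 1.48, 1.55 and 2.01 RPM in Δ/D329A (log2 difference −0.55, SE 0.14, limma adjusted p 0.407). Its groups did not overlap. Ppard, at the level of background for this mark, had 0.252, 0.270 and 0.223 RPM in +/+ and 0.0672, 0.134 and 0.127 RPM in Δ/D329A (log2 difference −0.75, SE 0.25, limma adjusted p 0.501), all below the input.

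The lowest p for H3K4me3 belonged to Esrrg, the oestrogen-related receptor gamma. It was 4.05, 4.69 and 5.52 RPM in +/+ and 1.22, 3.0 and 0.807 RPM in Δ/D329A, without overlap, while H3K27me3 was 5.03 ± 0.485 RPM (SD, n = 3) in +/+ and 4.90 ± 0.371 in Δ/D329A. The log2 difference in H3K4me3 was −1.64 (SE 0.48), with a limma adjusted p of 1.0 over all promoters and of 3.42e-06 over the 16483 with a mean of at least 0.5 RPM. By edgeR the adjusted p was 0.176, and with median centring the log2 difference was −1.43. At the start 389036 bp downstream, which has the most H3K4me3 of this gene, the means were 10.6 RPM in +/+ and 6.56 RPM in Δ/D329A. Expression of Esrrg was 0.86 ± 0.29 and 1.07 ± 0.44 log2 RPKM in the genotypes, with a limma adjusted p of 0.813.

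**Figure D5:**
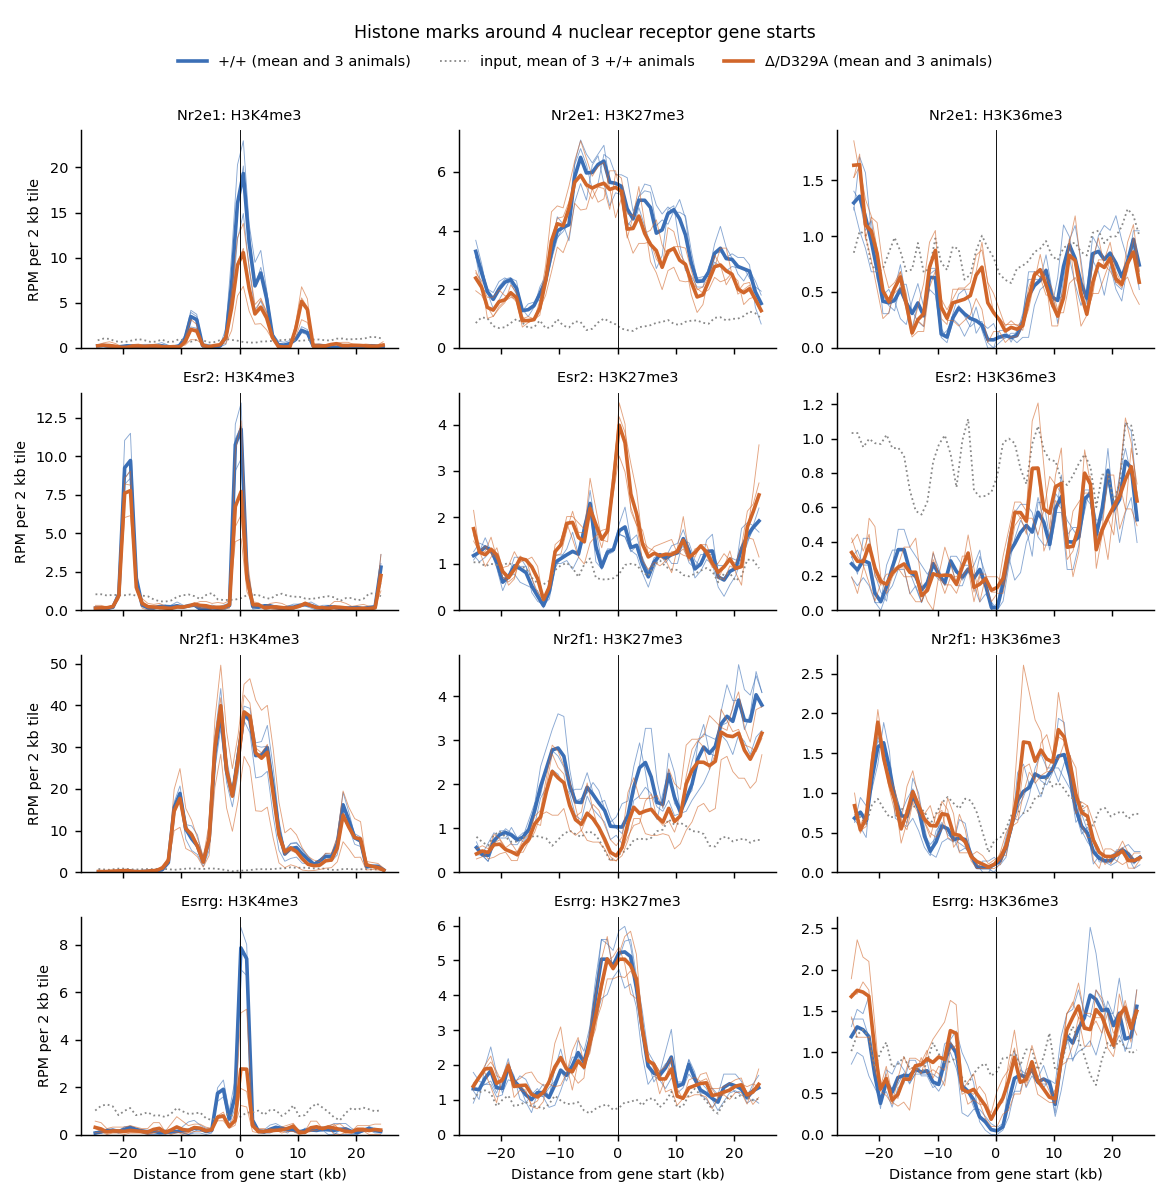
H3K4me3, H3K27me3 and H3K36me3 around the starts of Nr2e1, Esr2, Nr2f1 and Esrrg, as RPM per tile of 2000 bp against the distance from the start in kb on the strand of the gene; thick lines are means, thin lines the 3 animals of each genotype, and the dotted line the +/+ input. The Esr2 H3K27me3 lines of Δ/D329A rise above +/+ at the start, and at Nr2e1 and Esrrg the mean H3K4me3 of Δ/D329A lies below that of +/+ at the start.

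H3K36me3 at promoters had non-overlapping groups and an unadjusted limma p under 0.05 at 3 further members. The retinoic acid receptor Rarb had 0.0875, 0.0711 and 0 RPM in +/+ and 0.122, 0.197 and 0.420 RPM in Δ/D329A (log2 difference 1.14, SE 0.38, limma adjusted p 0.718). Rarg moved the other way, with 0.153, 0.166 and 0.236 RPM in +/+ and 0.122, 0.0983 and 0.0525 RPM in Δ/D329A (−0.58, SE 0.23, limma adjusted p 0.736). With a pseudocount of 0.5 RPM the log2 difference shrank to 0.42 at Rarb and −0.21 at Rarg. With a window of 2500 bp on both sides it was 0.28 at Rarb and −0.21 at Rarg. Nr1h4 had 0.547, 0.545 and 0.497 RPM in +/+ and 0.901, 0.688 and 0.656 RPM in Δ/D329A (0.42, SE 0.16, limma adjusted p 0.726). At Nr1h4 the input differed likewise, with 1.05, 0.880 and 0.879 RPM in +/+ and 1.36, 1.15 and 1.22 RPM in Δ/D329A. Vdr had the same pattern in input, with 0.646, 0.904 and 0.607 RPM against 1.01, 1.11 and 1.11 RPM.

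Over gene bodies, where H3K36me3 follows transcription, the members with an unadjusted limma p under 0.05 were no larger a share of the family than of all genes, as counted above, and 11 of 46 did not overlap. The 6 members under that p are given by animal. Nr1d2 had 1.85, 1.84 and 1.81 RPM in +/+ and 1.61, 1.64 and 1.64 RPM in Δ/D329A, a log2 difference of −0.16 (SE 0.03, limma adjusted p 0.223). Nr2c2 had 1.81, 1.73 and 1.64 RPM against 1.48, 1.61 and 1.5 RPM (−0.16, SE 0.05, limma adjusted p 0.255). Rxrb was higher in Δ/D329A, with 1.43, 1.42 and 1.35 RPM against 1.81, 1.60 and 1.70 RPM (0.26, SE 0.05, limma adjusted p 0.223).

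The other 3 had higher values in Δ/D329A, all below input. Hnf4a had 0.279, 0.284 and 0.278 RPM in +/+ and 0.351, 0.361 and 0.375 RPM in Δ/D329A (log2 difference 0.28, SE 0.08, limma adjusted p 0.231). Nr5a2 had 0.473, 0.508 and 0.518 RPM against 0.614, 0.618 and 0.613 RPM (0.25, SE 0.08, limma adjusted p 0.247). Vdr had 0.336, 0.322 and 0.356 RPM against 0.426, 0.391 and 0.438 RPM (0.24, SE 0.09, limma adjusted p 0.285). Across the 38 members tested, the log2 difference in expression had a Spearman rho of 0.24 with that of H3K4me3, −0.19 with that of H3K27me3 and −0.19 with that of H3K36me3 at the promoter, as a description across genes.

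The genes through which nuclear receptors act were taken from 14 lists that hold 119 genes, 105 of them tested. Limma called 1 of these genes, higher in Δ/D329A (0.107% of all genes tested called), edgeR 2 (0.554%) and DESeq2 3 higher and 4 lower (1.56%). An unadjusted limma p under 0.05 was reached by 18 of the 105, against 7.62% of all genes. The lists were chosen with earlier results of these data known, so counts and signs within them are descriptions and no independent support. The gene called by all 3 tools was Plin4, a lipid droplet gene induced by glucocorticoids, which averaged −1.17 ± 0.25 log2 RPKM over 5 +/+ libraries (± SD) and 0.58 ± 0.09 over 4 Δ/D329A libraries, with a log2 difference of 1.75 (SE 0.18, limma adjusted p 0.00173). In its list of 11 glucocorticoid targets, 11 had a positive log2 difference, with a median of 0.28, and 1 was called, while the receptor Nr3c1 differed by −0.12 (SE 0.14).

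Among retinoid handling genes (11 of 14 tested, median log2 difference 0.26), limma called none and DESeq2 called the binding protein Crabp1 lower, by −2.01 (SE 0.44, limma adjusted p 0.183), and the carrier Ttr higher, by 1.82 (SE 0.40, limma adjusted p 0.187). Ttr is itself a marker of the choroid plexus. Of the other 4 choroid plexus markers tested, none was called by any of the 3 tools, and Kl, Clic6 and Otx2 had log2 differences of −0.43, −0.35 and −0.31 and Folr1 of 0.08. In the list of retinoic acid targets (7 of 8 tested, median 0.58), none was called by any of the 3 tools and 3 had an unadjusted limma p under 0.05, the lowest for Stra6, a retinol transporter (1.01, SE 0.23, limma adjusted p 0.195). Of 7 thyroid hormone handling genes, 5 were tested with a median of −0.22, and DESeq2 called Crym, a thyroid hormone binding protein, lower (−1.51, SE 0.44, limma adjusted p 0.355).

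Among PPAR targets (8 of 8 tested, median 0.04), the fatty acid binding protein gene Fabp7 was called lower by DESeq2, as given beside Nr2e1. Among LXR targets (7 of 7 tested, median 0.07), Scd1 of fatty acid desaturation was called lower by DESeq2 (−0.33, SE 0.17, limma adjusted p 0.359). In the list of oestrogen and progesterone targets, which includes Pgr itself, 5 of 6 were tested. All 5 had a negative log2 difference, with a median of −0.36 and none called by any of the 3 tools. Each of the 5 had its highest count in +/+ replicate 1, the library with the most reads on genes. The list was not split by the direction in which the hormones act, so the shared sign is a description only. The lowest p was that of Kiss1, the kisspeptin gene, which averaged 0.29 ± 0.91 log2 RPKM over 5 +/+ libraries (± SD) and −0.98 ± 0.82 over 4 Δ/D329A libraries, with overlapping groups and a limma adjusted p of 0.355.

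No gene was called by any of the 3 tools among 15 corepressors (median 0.01, lowest p for Lcor), 13 coactivators tested of 15 (median 0.07, Ncoa2), 8 receptor chaperones (median 0.12, Ptges3), 6 thyroid hormone targets tested of 7 (median 0.10, Trh), 5 steroid and sterol handling genes tested of 10 (median −0.05, Hsd11b1) or 5 REV-ERB and ROR targets tested of 6 (median 0.21, Npas2). Npas2, a clock gene repressed by REV-ERB and activated by ROR proteins, differed by 0.65 (SE 0.20, limma adjusted p 0.355) without overlap of the groups.

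Markers of tissue that borders the hypothalamus are given for the whole comparison. Of 5 cortical and amygdalar markers tested of 8, 2 were called higher by DESeq2 and 1 by edgeR, with summed levels of 1.84 to 3.01 RPKM in +/+ and 2.42 to 3.91 in Δ/D329A. Of 6 striatal and septal markers tested of 7, 2 were called higher by DESeq2 and 1 by edgeR, with 12 to 18.5 and 17.4 to 21.2 RPKM. Microglial (20.9 to 41.6 and 25 to 41.0 RPKM) and vascular markers (17.3 to 35.4 and 21.0 to 28.2 RPKM) held no gene called by these tools, nor did those of the anterior pituitary (0.676 to 17.1 and 3.30 to 11.9 RPKM). Of 6 oligodendrocyte markers (264 to 408 and 176 to 332 RPKM), 1 was called lower by DESeq2, Mobp. The part of these cells in the levels of the nuclear receptors was not tested.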

How the data were processed

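Processed values of 9 RNA-seq and 24 ChIP-seq libraries were used. Trimming, mapping to GRCm38 and quantification with SeqMonk were done by the authors. The submitters' processing notes name Trim Galore 0.4.3, HISAT2 2.0.5 and Bowtie2 2.3.2. The deposited RNA-seq values are log2 RPKM over merged exons, with a gene without reads at a floor of 0.9 reads, and whole reads were recovered within 0.02 reads for 100% of genes. The deposited ChIP-seq signal is RPM, read coverage scaled by mapped reads, in tiles of 2000 bp every 1000 bp, without input subtraction. The authors left out 1 Δ/D329A RNA-seq library of low quality, and the bisulfite libraries were not analysed here.

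Genotypes were compared two-sided with limma 3.58.1 (R 4.3.3) over all features, with Benjamini-Hochberg adjustment. Expression was tested on the deposited log2 values for genes that reached 0.1 RPKM in 4 libraries or more, outside the mitochondrial genome, and called at 0.01, the threshold of the study, whose count-based tool was replaced because the table holds log2 values. Marks were tested on log2(RPM + 0.1) and called at 0.05. edgeR 4.0.16 and DESeq2 1.42.0 were run on recovered reads. Reads of overlapping tiles were summed for edgeR, so that a read can count in 2 tiles. Exact permutation tests used scipy 1.17.1. The fitting scripts were tested on simulated data.

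Listed by library were members called by 1 of the 3 tools, members with an unadjusted p under 0.05 whose groups do not overlap, and the highest member. Other members are given by means, and of each pathway list the genes called or of lowest p, except 1 gene that is not reported here. The members and lists were chosen with earlier results of these data known. Alternatives were another tool, scaling, filter, pseudocount, window, leaving out each library, and a block on the replicate number. The fit without +/+ replicates 4 and 5 was added after seeing the data.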

Additional observations from a re-analysis of the deposited data

Results flagged for a closer look

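In 6 of 85 groups of member values, 1 library stood apart from the others of its genotype by Dixon's criterion at the 95% level, which chance alone gives in about 1 in 20 groups. In Δ/D329A replicate 2, Rarg was at −1.11 log2 RPKM on 20 reads, where the rest of the group spanned −0.39 to −0.31, and Nr5a2 was at −5.33 on 1 read, against −2.21 to −1.61. In +/+ replicate 4, Ppard was at −1.58 on 24 reads, against −0.64 to −0.46, and Vdr, without a read, was listed at −6.60, against −4.66 to −3.89. In +/+ replicate 5, Nr1d2 was at 3.61 on 1026 reads, against 4.02 to 4.15, and Esr2 was at −2.24 on 12 reads, against −1.55 to −1.41.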

How the results depend on the processing

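Nr2e1 was lower in Δ/D329A in all 21 alternatives, with log2 differences from −1.79 to −0.50. The number of members called in RNA-seq, 1 at first, was 2 by DESeq2 and 0 with median centring, quantile normalization, a limit of 0.5 RPKM, a pseudocount of 0.1 RPKM, without +/+ replicates 4 and 5, and with the replicate block. It ranged from 0 to 0 when 1 library was left out. Same-numbered libraries did not deviate together (correlations of −0.05 to 0.14 in RNA-seq), so that the block, run on the 8 libraries with shared numbers, does not reflect a pairing. Under the block Nr2e1 had a limma adjusted p of 0.0339. In the ChIP-seq fits the block gave 0 members called for each mark, as without it. Over promoters with a mean of at least 0.5 RPM, 2 members were called for H3K4me3 (Esrrg and Nr2e1) and 2 for H3K27me3 (Esr2 and Nr2f1). For H3K27me3, 2 were called by edgeR, 1 with median centring and 1 with quantile normalization (Esr2, 0.208% and 0.566% of all promoters called). Thra turned from 0.17 to −0.18 without +/+ replicates 4 and 5, with no call in either fit. With a limit of 1.5 times input, 12 members carried both marks, and with 3 times input 0 carried H3K27me3 only and 11 neither. H3K27me3 runs of 10 kb or more numbered 7 in +/+ and 8 in Δ/D329A, and 4 in each genotype at 3 times input. The cause of these changes was not tested. Some members rest on few reads, among them Nr2e1, with 8 to 14 reads per Δ/D329A library, and the part of depth was not tested.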
